A study of Rattus norvegicus with 6 samples.

Results

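The genes described here are 35 proliferation genes, 11 of DNA replication and 24 of mitosis, chosen by symbol as a list of cell cycle machinery and read in 6 liver samples of Sprague-Dawley rat offspring aged 3 weeks. In the array annotation, 32 of the 35 had a probe set of their own, of 14217 genes named in all. The 2 genes Rrm2 and Hmgb2 shared their probe sets with other genes in the annotation and Tpx2 was not named in the annotation, so these 3 have no value here. Of the 32, all 10 named replication genes and 18 of 22 mitosis genes lay above the brightness limit, which left out the lowest 40% of probe sets by mean over the 6 arrays. Bub1b, Plk1, Cenpe and Ttk lay below it and are described without a test.

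The offspring were taken at weaning from dams fed standard chow (control, 3 samples) or from dams fed a high fat diet (3 samples), with 1 Affymetrix expression array of liver RNA per sample. The labels name the samples as biological replicates but do not say whether each is 1 animal or a pool, or whether animals shared a dam, so the errors and p-values below measure the spread between these samples. They give no sex, composition of the diet or length of feeding. The question is whether liver transcripts at weaning differ with what the dam was fed. Values are log2 probe set signals after quantile normalization. A difference is high fat minus control on that scale with limma's standard error (SE), and limma's p-values were adjusted by Benjamini-Hochberg over the 10372 genes tested.

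Cells about to divide first load the MCM helicase onto DNA, then copy the genome with the clamp PCNA and a supply of deoxynucleotides, and then separate the chromosomes on a spindle driven by the kinases CDK1, PLK1 and the Aurora kinases. Replication genes are known targets of E2F factors, and many mitotic genes are known to be held silent in resting cells through a CHR element and to be activated through CCAAT boxes bound by NF-Y. Rodent hepatocytes still divide in the weeks after birth, and around weaning many become binucleate or polyploid when a division is left incomplete.

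The promoters of these genes carry E2F and CHR motifs in different proportions. They were read from RefSeq's promoter table of the GRCr8 assembly, which spans 250 bases before to 50 after each annotated start. Promoters were found for 9 of 11 replication and 21 of 24 mitosis genes, with none for Mcm4, Rrm2, Aurkb, Ube2c and Tpx2. Both strands were searched for an E2F motif (TTTCCCGC, TTTGGCGC, TTTCGCGC or TTTGCCGC), a CHR motif (TTTGAA or TTCGAA) and CCAAT, and matches that overlap were all counted. An E2F motif was present in 6 of 9 replication promoters (66.7%) and in 2 of 21 mitosis promoters (9.52%), Cdk1 and Stmn1, against 2.14% of all 33469 promoters of that length. A CHR motif was present in 3 of 9 replication promoters (33.3%) and 15 of 21 mitosis promoters (71.4%), against 19.7% of all promoters. CCAAT was present in 7 of 9 (77.8%) and 18 of 21 (85.7%), against 37.5% of all. CHR and CCAAT occurred together in 2 of 9 replication promoters (22.2%) and 14 of 21 mitosis promoters (66.7%), against 7.95% of all. These are letter matches and not measured binding sites.

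The 6 promoters shown are those with a motif that belong to the genes of smallest p in each part, so that the elements can be set beside the values below. They run 5′ to 3′ on the gene's strand from 250 bases before the annotated start to 10 after it, with all motif matches in capitals. Mcm7, Pcna and Mcm2 are replication genes, and Cenpf, Mki67 and Cdkn3 mitosis genes.
Mcm7, chr12:22163169-22163428, minus strand: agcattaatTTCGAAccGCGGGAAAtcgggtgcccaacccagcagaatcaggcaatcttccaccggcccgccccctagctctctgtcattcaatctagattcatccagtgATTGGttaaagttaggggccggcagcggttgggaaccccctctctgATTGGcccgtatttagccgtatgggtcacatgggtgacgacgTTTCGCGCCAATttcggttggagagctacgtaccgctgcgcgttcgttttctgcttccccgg
Pcna, chr3:139955811-139956070, minus strand: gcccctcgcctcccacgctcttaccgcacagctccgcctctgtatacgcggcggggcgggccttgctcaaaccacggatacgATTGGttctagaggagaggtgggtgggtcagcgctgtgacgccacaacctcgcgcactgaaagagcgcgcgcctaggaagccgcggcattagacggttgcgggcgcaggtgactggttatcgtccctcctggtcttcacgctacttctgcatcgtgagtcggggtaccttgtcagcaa
Mcm2, chr4:122918085-122918344, minus strand: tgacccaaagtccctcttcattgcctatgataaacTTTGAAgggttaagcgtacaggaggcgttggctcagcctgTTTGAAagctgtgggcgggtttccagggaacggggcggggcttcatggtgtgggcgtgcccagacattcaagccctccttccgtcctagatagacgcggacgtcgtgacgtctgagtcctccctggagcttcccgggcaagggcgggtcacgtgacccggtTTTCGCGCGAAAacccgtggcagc
Cenpf, chr13:103760877-103761136, minus strand: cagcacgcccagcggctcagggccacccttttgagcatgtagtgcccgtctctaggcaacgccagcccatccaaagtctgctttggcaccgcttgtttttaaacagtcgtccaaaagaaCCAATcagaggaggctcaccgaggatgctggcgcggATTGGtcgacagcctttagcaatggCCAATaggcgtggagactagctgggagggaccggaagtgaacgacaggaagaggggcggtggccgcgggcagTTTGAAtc
Mki67, chr1:199952584-199952843, minus strand: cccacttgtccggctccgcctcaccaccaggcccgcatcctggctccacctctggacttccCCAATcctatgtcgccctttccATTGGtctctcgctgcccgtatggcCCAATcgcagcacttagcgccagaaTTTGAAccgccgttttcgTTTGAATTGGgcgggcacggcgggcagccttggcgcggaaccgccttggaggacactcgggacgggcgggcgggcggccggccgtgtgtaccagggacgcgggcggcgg
Cdkn3, chr15:22502136-22502395, plus strand: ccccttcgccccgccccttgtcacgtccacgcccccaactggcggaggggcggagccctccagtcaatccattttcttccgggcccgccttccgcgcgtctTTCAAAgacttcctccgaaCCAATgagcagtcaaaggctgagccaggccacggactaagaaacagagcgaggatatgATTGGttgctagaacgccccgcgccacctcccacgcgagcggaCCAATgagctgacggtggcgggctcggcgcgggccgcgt
The Mcm7 promoter held an E2F motif at position -52, counted from the annotated start as +1, that overlapped a CCAAT box at -45. The Mcm2 promoter held a pair of overlapping E2F motifs, at -14 and -10, in a stretch that reads the same on both strands. Pcna, the sliding clamp, had none of the 4 E2F spellings in the window and a single CCAAT at -168. Cenpf had CCAAT at -131, -95 and -70 and a CHR motif at position 3, just after the start. In Mki67 a CHR motif at -99 ran into a CCAAT at -94.

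**Figure D1:**
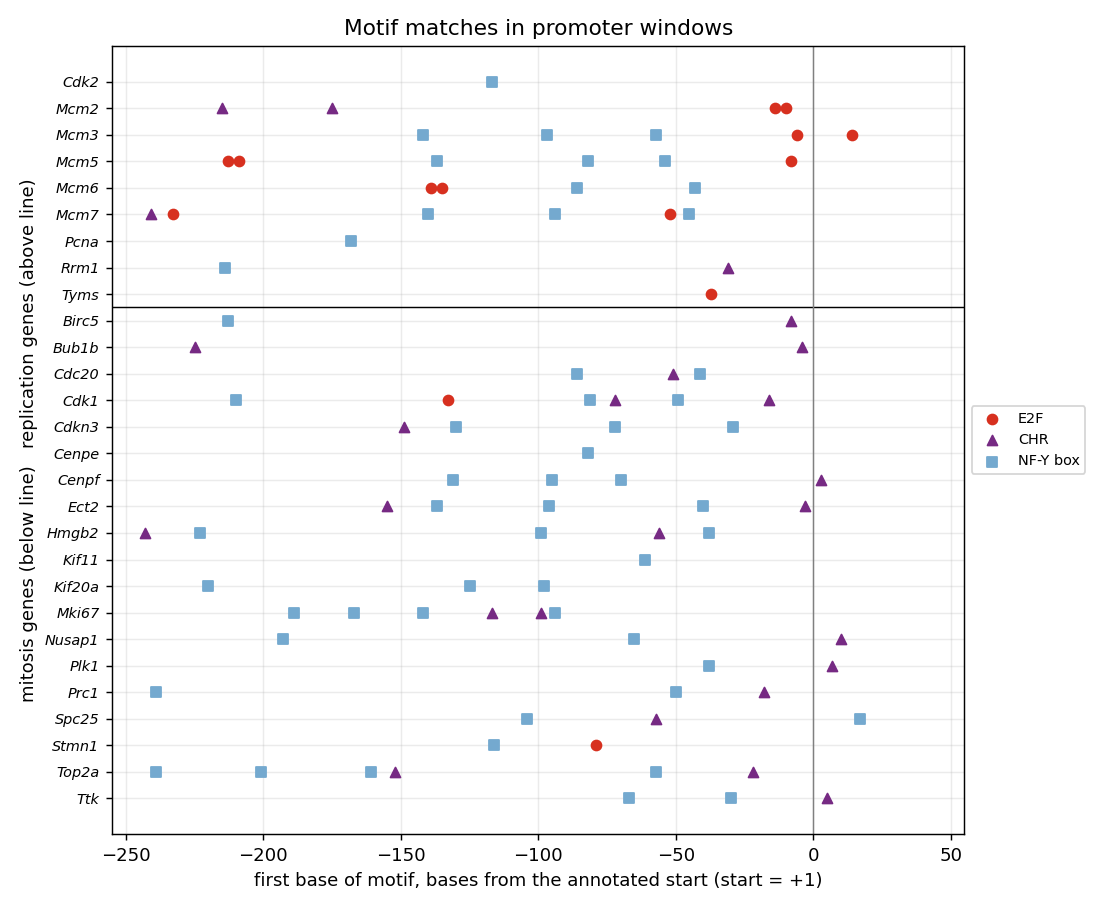
Positions of E2F (circles), CHR (triangles) and CCAAT (squares, drawn as the NF-Y box) motif matches in the promoter windows of 9 replication genes above the line and 19 mitosis genes below it; the x axis is the first base of the match in bases from the annotated start, and both strands were searched. E2F matches lie in 6 of the replication promoters and CHR matches in 15 of the mitosis promoters; Aurka and Bub1 had no match and are not drawn.

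No replication or mitosis gene passed an adjusted p under 0.05 between the diets, where 0.0386% of all genes tested did (4 of 10372), 0.0289% higher and 0.00964% lower. Of the 28 members tested, 4 had an unadjusted p under 0.05 (14.3%), against 14% of all genes tested, so the members' share was that of the background. Mcm7, Pcna and Cenpf lay higher (6.55% of all genes) and Aurka lower (7.49% of all genes). With a fold of at least 1.5 as well, Mcm7 and Cenpf lay higher and Aurka lower, where 3.34% and 3.36% of all genes did. Replication genes lay mostly on the high side in offspring of high fat dams. Their differences were above 0 in 8 of 10 genes, against 46.9% of all genes tested, with a median of 0.51 against -0.02 over all genes. Mitosis genes had a median of 0.20 and 12 of 18 above 0. Both depended on 1 array. Without high fat replicate 3 the replication median fell to 0.15, and the mitosis median changed sign, to -0.21. In 6 of the 28 (21.4%) the groups did not overlap, against 20.8% of all genes, which is again the background share. These were Mcm7, Pcna and Mcm2 of replication and Cenpf and Mki67 of mitosis, with all high fat arrays above all controls (9.26% of all genes), and Aurka, with all below (11.6% of all genes). A tissue sample cannot tell more dividing cells from more of these transcripts per cell.

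Among the replication genes, the MCM helicase is described first. The subunit Mcm7 had log2 signals of 9.35, 9.46 and 9.16 in control replicates 1, 2 and 3, and of 9.91, 9.96 and 10.35 in the high fat replicates in the same order. Every high fat sample was above every control, with high fat replicate 3 the highest. The difference was 0.75 (SE 0.17), a 1.68-fold higher mean (limma unadjusted p = 0.00311, adjusted p = 0.186), with a 95% interval of 0.35 to 1.14. Without high fat replicate 3 it was 0.61 (unadjusted p = 0.0102).

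Mcm2, another subunit of the same ring, had signals of 7.66, 7.84 and 7.72 in controls and 7.97, 7.88 and 8.76 in high fat samples. High fat replicates 1 and 2 lay just above the highest control and replicate 3 far above it. The difference was 0.47 (SE 0.25, limma adjusted p = 0.452), and 0.19 without high fat replicate 3. Mcm6 had the highest difference of the replication genes, 1.17 (SE 0.66, limma adjusted p = 0.482). Its signals were 6.87, 7.71 and 6.24 in controls and 8.18, 6.80 and 9.35 in high fat samples. The groups overlapped, because high fat replicate 2 lay among the controls, and the difference was 0.55 without replicate 3. The 95% interval of the Mcm6 difference ran from -0.39 to 2.74.

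The remaining subunits also overlapped. Mcm5 had a difference of 0.69 (SE 0.40), Mcm3 of 0.62 (SE 0.51) and Mcm4 of 0.16 (SE 0.49). Mcm4 was at 9.01, 8.32 and 7.90 in controls and 8.46, 7.72 and 9.54 in high fat samples, so that its highest and its lowest value both came from offspring of high fat dams. Without high fat replicate 3, Mcm4 was at -0.32, Mcm3 at 0.12 and Mcm5 at 0.39. All 6 MCM subunits had their highest signal in high fat replicate 3.

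Pcna, the clamp that holds the polymerase on DNA, gave 10.83, 10.95 and 10.65 in controls and 11.43, 11.16 and 11.52 in high fat samples. The groups did not overlap, and here replicate 1 was nearly as high as replicate 3. The difference was 0.56 (SE 0.15), 1.48-fold (limma unadjusted p = 0.00824, adjusted p = 0.224), and 0.49 without high fat replicate 3 (unadjusted p = 0.0339). Mcm7 and Pcna were thus the replication genes under an unadjusted 0.05 both with all arrays and without that array.

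Of the enzymes that supply deoxynucleotides, Rrm1 and Tyms were measured. Rrm1, the large subunit of ribonucleotide reductase, was at 8.25, 8.87 and 8.12 in controls and 8.61, 8.01 and 9.17 in high fat samples, a difference of 0.19 (SE 0.33, limma adjusted p = 0.84), and -0.10 without high fat replicate 3. Tyms, thymidylate synthase, was at 6.63, 6.79 and 6.16 in controls and 6.77, 6.01 and 6.69 in high fat samples, a difference of -0.04 (SE 0.26). It was the 1 replication gene whose highest value was not in high fat replicate 3. Cdk2, the kinase that fires replication origins with its cyclins, was at 8.12, 8.33 and 8.20 against 7.94, 7.90 and 8.43, a difference of -0.13 (SE 0.18, limma adjusted p = 0.791). Its other probe set was at -0.36.

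**Figure D2:**
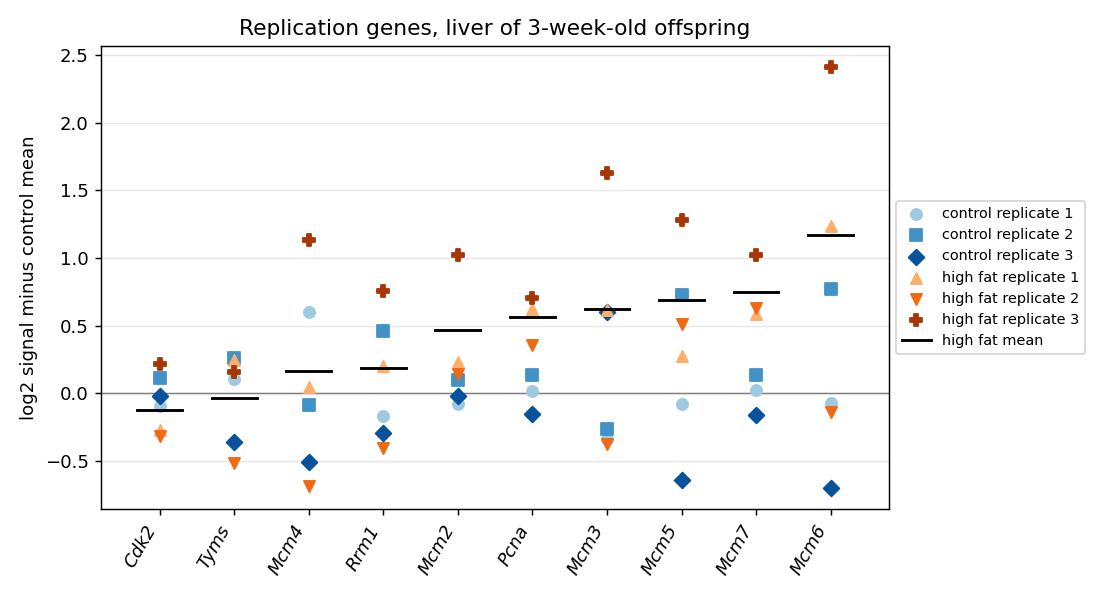
Log2 signal minus the mean of the 3 controls for the 10 replication genes tested, with 1 symbol per array (blue, controls; orange to brown, high fat) and a bar at the mean of the 3 high fat arrays. High fat replicate 3 is the top symbol in 9 of 10 genes; in Mcm2, Mcm7 and Pcna all 3 high fat arrays lie above the controls.

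The mitosis genes begin with those of smallest p. Cenpf, a kinetochore protein made late in the cycle, was at 6.80, 6.14 and 6.08 in controls and 7.05, 7.07 and 7.22 in high fat samples. All 3 high fat samples lay close together and above the controls. The difference was 0.78 (SE 0.21), 1.71-fold (limma unadjusted p = 0.00852, adjusted p = 0.226), with a 95% interval of 0.27 to 1.28. It was 0.72 without high fat replicate 3 (unadjusted p = 0.0294). Mki67, the widely used marker of cycling cells, was at 7.84, 7.14 and 7.74 in controls and 7.84, 7.93 and 9.01 in high fat samples. High fat replicate 1 lay above the highest control by less than 0.01, and replicate 3 stood more than 1 unit above all others. The difference was 0.69 (SE 0.35, limma adjusted p = 0.437), and 0.31 without high fat replicate 3.

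Aurka, the Aurora kinase of the spindle poles, went the other way. It was at 6.74, 6.55 and 7.20 in controls and 6.54, 5.65 and 6.06 in high fat samples, without overlap although high fat replicate 1 was only just below the lowest control. The difference of -0.75 (SE 0.27; limma unadjusted p = 0.0284, adjusted p = 0.303) was the lowest of the 18 mitosis genes tested. It was -0.74 without high fat replicate 3 (unadjusted p = 0.0646) and -0.53 without high fat replicate 2. Aurkb, the Aurora kinase of the chromosomal passenger complex, was at 0.33 (SE 0.45), with high fat replicate 3 highest at 7.47 and high fat replicate 2 lowest at 5.74. Birc5, or survivin, of the same complex, was at -0.24 (SE 0.25), with all 3 high fat samples between 6.67 and 6.86, within the control range of 6.47 to 7.47.

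The kinase Cdk1, which drives entry into mitosis, was at 7.69, 7.24 and 6.28 in controls and 6.92, 6.74 and 8.19 in high fat samples. Its difference was 0.22 (SE 0.48, limma adjusted p = 0.877), and -0.24 without high fat replicate 3. Top2a, the topoisomerase that untangles chromosomes, was at 7.84, 6.74 and 6.67 in controls and 7.61, 5.97 and 8.24 in high fat samples, a difference of 0.19 (SE 0.60). Its extremes were again both in high fat samples, replicate 3 above and replicate 2 below all others. The 95% interval, from -1.24 to 1.62, would hold a change of more than 2-fold either way. Another Top2a probe set was at 0.45.

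Checkpoint and kinetochore genes had wide intervals too. Bub1, a checkpoint kinase, was at 0.10 (SE 0.46) and Spc25, of the NDC80 complex, at -0.06 (SE 0.39), both highest in high fat replicate 3 and lowest in high fat replicate 2. Cdc20 and Ube2c, the activator and the ubiquitin-conjugating enzyme of the anaphase-promoting complex, were at 0.35 (SE 0.43) and -0.29 (SE 0.29), and both were highest in control replicate 1, at 7.76 and 7.94. With 1 array left out, Cdc20 ran from 0.051 without control replicate 3 to 0.81 without control replicate 1, and Ube2c from -0.52 to -0.055 under the same settings. Cdc20 had 5 probe sets, and the other 4 lay at -1.36 to -0.10, opposite in sign to the one used. Of those 4, only the probe set at -0.10 lay above the brightness limit.

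Of the spindle motors and cytokinesis genes, Kif11 was at 0.27 (SE 0.33), Kif20a at 0.34 (SE 0.45) but 0.043 without control replicate 3, Ect2, which acts in cytokinesis, at 0.32 (SE 0.48) and Nusap1 at 0.18 (SE 0.27). Nusap1 had another probe set at -0.27, and Kif11 had another at 0.98 that lay below the brightness limit. Prc1, which bundles microtubules of the central spindle, was at 7.66, 7.75 and 7.57 in controls and 7.30, 6.97 and 8.05 in high fat samples. Its difference was -0.22 (SE 0.27) with all arrays and -0.53 without high fat replicate 3 (limma unadjusted p = 0.0237, adjusted p = 0.412), where both other high fat samples lay below all controls.

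With Mki67, the mitosis probe sets of highest mean signal were Stmn1 and Cdkn3. Stmn1, the microtubule-destabilizing protein stathmin, was at 10.04, 10.03 and 9.42 in controls and 9.97, 9.77 and 10.71 in high fat samples, a difference of 0.32 (SE 0.29, limma adjusted p = 0.664). It was 0.04 without high fat replicate 3. Cdkn3, a phosphatase of CDK1 and CDK2, was at 8.65, 7.39 and 7.83 in controls and 7.36, 7.20 and 7.83 in high fat samples, a difference of -0.49 (SE 0.34, limma adjusted p = 0.562). Control replicate 1 was its highest array, and the difference was -0.14 without it and -0.78 without control replicate 2.

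The 4 dim mitosis genes differed in which array was highest. Bub1b was at 6.17 in high fat replicate 3, against at most 5.72 elsewhere, and the checkpoint kinase Ttk was at 6.47 there, against 4.57 to 5.38 elsewhere. Plk1 was at 6.40 in control replicate 1 and 6.34 in high fat replicate 3 and at 2.64 to 4.32 in the other arrays. Cenpe, a kinetochore motor, was highest in high fat replicates 1 and 2, at 4.49 and 4.01, and at most 3.04 elsewhere. Signals this low have little precision.

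**Figure D3:**
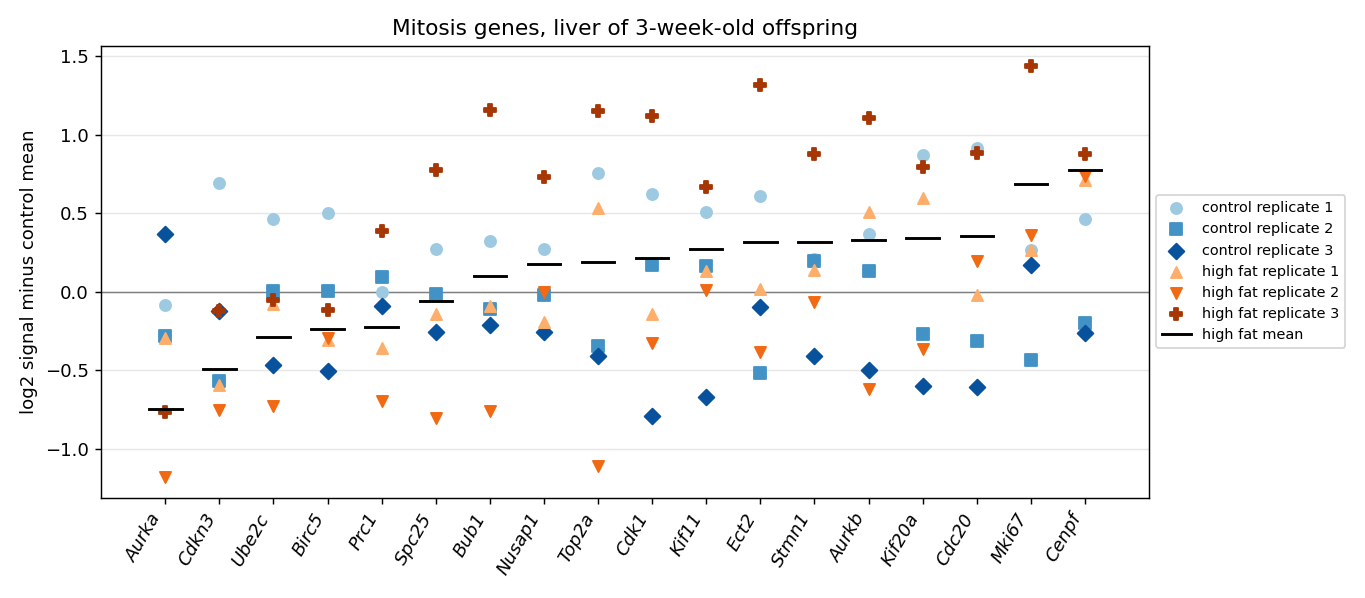
Log2 signal minus the mean of the 3 controls for the 18 mitosis genes tested, with 1 symbol per array (blue, controls; orange to brown, high fat) and a bar at the mean of the 3 high fat arrays. The top symbol is high fat replicate 3 in 12 of 18 genes and control replicate 1 in 5; Aurka is the gene with all high fat arrays below the controls.

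Levels of these genes varied widely between samples of the same diet. High fat replicate 3 held the highest of the 6 signals in 9 of 10 replication and 12 of 18 mitosis genes, 75% of the 28, where it did so in 13.3% of all genes tested. It was above all 3 controls in 21 of the 28, against 25.4% of all genes. High fat replicate 2 held the lowest signal in 5 of 10 and 8 of 18, and control replicate 3 in 4 of 10 and 8 of 18. The median replication gene, set against the control mean, stood at 0.26, -0.23 and 1.02 in high fat replicates 1, 2 and 3, and at -0.07, 0.14 and -0.23 in the controls. The median mitosis gene stood at -0.05, -0.37 and 0.84 in the high fat samples and at 0.46, -0.06 and -0.34 in the controls. Control replicate 1 was thus second for mitosis but not for replication. The typical SD within a diet was 0.36 in controls and 0.51 in high fat samples for replication genes, and 0.46 and 0.53 for mitosis genes, against 0.21 and 0.19 over all genes tested.

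When high fat replicate 3 was left out, 6 of 10 replication genes and 6 of 18 mitosis genes were above 0. Without control replicate 3 the mitosis median was -0.0091, and without control replicate 1 it was 0.47. At an unadjusted p under 0.05, 5 replication genes lay higher without high fat replicate 2 in place of 2, where 10.2% of all genes had such a p in either direction. The mitosis genes at that p were 2 higher and none lower when either control replicate 1 or high fat replicate 2 was left out, and 1 higher and 2 lower without control replicate 2. The share of all genes at that p was 12.7% without control replicate 1 and 13.2% without control replicate 2.

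**Figure D4:**
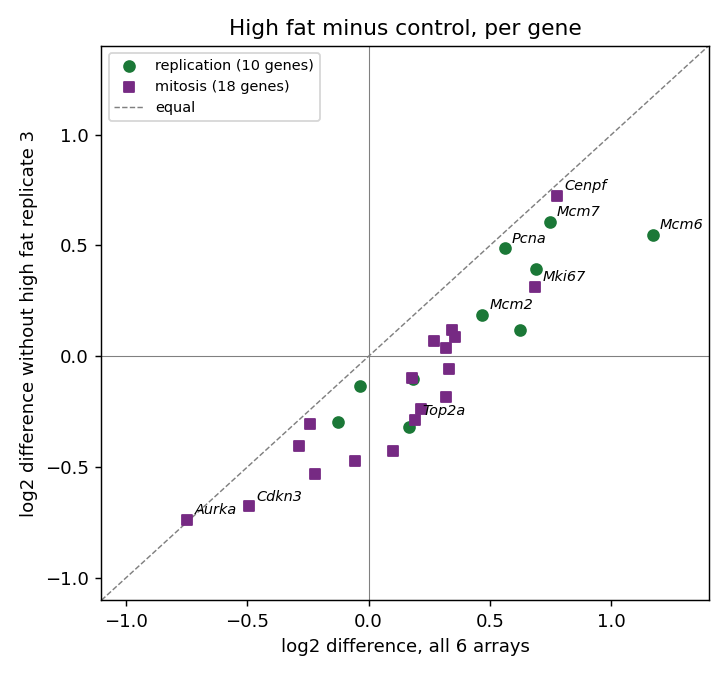
Log2 difference, high fat minus control, with all 6 arrays (x axis) against the same difference without high fat replicate 3 (y axis), for 10 replication genes (circles) and 18 mitosis genes (squares); the dashed line marks equal values. Cenpf, Mcm7, Pcna and Aurka stay near the line, while genes such as Mcm6, Mki67 and Top2a fall well below it.

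That array also stood apart in sex-linked transcripts. Its Xist signal, from the RNA that coats a silenced X chromosome, was 4.45, where the remaining arrays had 12.46 to 13.31. Its signal of the Y-linked Eif2s3y was 11.14, against at most 3.99. For Uty, another gene of the Y chromosome, its signal was 10.26, against 10.64 to 11.20. The Uty probe set thus did not follow Eif2s3y across the arrays and is not read as a Y-linked signal here. With 1 such array, its sex-linked transcripts and its level of cell cycle genes cannot be told apart. The 7 Kupffer cell and macrophage markers tested, of 9 listed, had medians of 0.33 in high fat replicate 3 and -0.38 in high fat replicate 2, and summed signals of 10830 to 14070 in controls and 9328 to 15630 in high fat samples. The 5 neutrophil and myeloid markers tested, of 11 listed, had medians of 0.56 in high fat replicate 3, 0.43 in control replicate 1 and -0.69 in high fat replicate 2, with sums of 616.8 to 1641 and 626.8 to 1412. The 5 erythroid markers tested, of 13 listed, were at 0.44 in control replicate 1, -0.62 in high fat replicate 2 and -0.16 in high fat replicate 3, with sums of 23130 to 31170 and 21690 to 25750. The 3 lymphocyte markers tested, of 10 listed, were at -0.02, -0.05 and -0.21 in high fat replicates 1, 2 and 3, with sums of 591.4 to 655.6 and 567.1 to 650.5. No probe set of these 4 lists was deposited at 0 on any array, and the precursor markers Mpo, Elane, Prtn3 and Ctsg were not named in the annotation. The part of these cells in the result was not tested. Of 9 endothelial markers listed, the 7 tested had differences below 0, with a median of -0.61. None passed an adjusted p under 0.05 in limma (smallest 0.184), and 6 were lower at an unadjusted p under 0.05, against 7.49% of all genes, with sums of 19180 to 22080 in controls and 10820 to 14400 in high fat samples. The part of endothelial cells in the members' differences was not tested either. Hepatocyte markers, 10 of 10 measured, summed to 242800 to 244500 in controls and 226000 to 231600 in high fat samples. High fat replicate 1 carried exocrine pancreas transcripts (summed signal 31510, against at most 4059 elsewhere), and without it the replication and mitosis medians were 0.56 and 0.23. Control replicate 3 had the largest 3′ minus 5′ difference of the Actb and Gapdh control probe sets, a sign of RNA integrity, at 3.06 against 1.92 to 2.46 elsewhere. With that difference as a covariate the replication median was 0.49 and the mitosis median 0.02.

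The wider machinery was read through lists of further genes. Of 35 other replication genes tested, 26 had a difference above 0, with a median of 0.14, and none had an unadjusted p under 0.05. The smallest p-values belonged to Gins3, of the replicative helicase, at 0.67 (SE 0.33), Pola1, the primase-associated polymerase, at 0.40 (SE 0.21), Rpa2, which coats single-stranded DNA, at 0.73 (SE 0.40) and Uhrf1, which helps copy DNA methylation, at 1.01 (SE 0.57). Single arrays moved these values: Gins3 was at 0.34 without control replicate 1, Pola1 at 0.21 and Rpa2 at 0.38 without control replicate 3, and Uhrf1 at 0.49 without high fat replicate 3. The Uhrf1 controls, at 5.85, 6.43 and 4.91, had a mean below the brightness limit of 5.83, as did the controls of Dtl and Gins1. These genes passed the limit through their high fat signals, so their differences above 0 are no support. In 21 of the 35 (60%), high fat replicate 3 held the highest signal. Of 31 other mitosis genes tested, 18 were above 0, with a median of 0.17, and 3 had an unadjusted p under 0.05, 2 higher and 1 lower, which is 9.68% against 14% of all genes. Mad2l1, Pbk and Melk, all above 0, had control means below the brightness limit and are no support either. Cenpw, below 0, passed the limit through its controls. High fat replicate 3 was highest in 18 of these 31 too (58.1%).

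Wee1, the kinase that holds CDK1 inactive, was at 7.33, 7.61 and 7.80 in controls and 8.41, 8.70 and 8.44 in high fat samples. All high fat samples were clearly above the controls and replicate 3 did not stand out. The difference was 0.94 (SE 0.17; limma unadjusted p = 0.000865, adjusted p = 0.166), and 0.98 without high fat replicate 3. The condensin subunit Smc4 was at 0.66 (SE 0.21) and its partner Ncapd2 at -0.39 (SE 0.16), both without overlap of the groups. Groups did not overlap in 4 of the 31 other mitosis genes (12.9%), against 20.8% of all genes, so this is no more than the background share. The centromere gene Cenpw was at -0.80 (SE 0.37), which was -0.46 without control replicate 1.

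Regulators of the cycle, 21 tested, had a median of 0.06, and at an unadjusted p under 0.05 there were 4 on the high side and 2 on the low side, 28.6% of the list against 14% of all genes tested. E2f1, an activator of replication genes, was at 6.24, 5.63 and 5.61 in controls and 7.13, 6.31 and 7.69 in high fat samples. The groups did not overlap, although high fat replicate 2 was only just above control replicate 1. The difference was 1.22 (SE 0.36; limma unadjusted p = 0.0126, adjusted p = 0.253), and 0.89 without high fat replicate 3. E2f8, a repressor of the family linked to polyploidy of hepatocytes, was at 1.11 (SE 0.39) and E2f5 at 0.52 (SE 0.18). Fzr1, which activates the anaphase-promoting complex in G1, was at -0.49 (SE 0.15). All 3 were without overlap. In the list as a whole, the groups did not overlap in 6 of 21 regulators (28.6%), against 20.8% of all genes. The E2f8 controls, at 5.17, 5.75 and 5.47, all lay below the brightness limit of 5.83. Its mean passed that limit only through the high fat signals of 5.85, 6.43 and 7.43, and E2f8 had no value without high fat replicate 3. Its place among the 4 on the high side is therefore no support. For E2f1, control replicates 2 and 3 lay below the limit too, and its control mean was just under it. E2f1 thus also passed the limit through its high fat signals, and its place on the high side is no support either. Mybl1, on the low side, passed the limit only through its controls, so the share of 28.6% is not read as a result. The 14 cyclins and CDK inhibitors tested had a median of 0.04, with 8 above 0. At an unadjusted p under 0.05, 2 were higher and 2 lower, 28.6% against 14% of all genes tested. In 3 of the 14 (21.4%) the groups did not overlap, against 20.8% of all genes. Ccne2, a partner of CDK2, was at 1.76 (SE 0.39) and Ccnd1 at 1.22 (SE 0.25), with all high fat samples above all controls. Without high fat replicate 3 these 2 cyclins were at 1.37 and 0.94. Cdkn1c, a CDK inhibitor, was at -0.78 (SE 0.21), with all high fat samples below all controls, and Ccnd3 at -0.62 (SE 0.25), with overlap. None of these 16 named genes passed an adjusted p under 0.05 in limma.

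**Figure D5:**
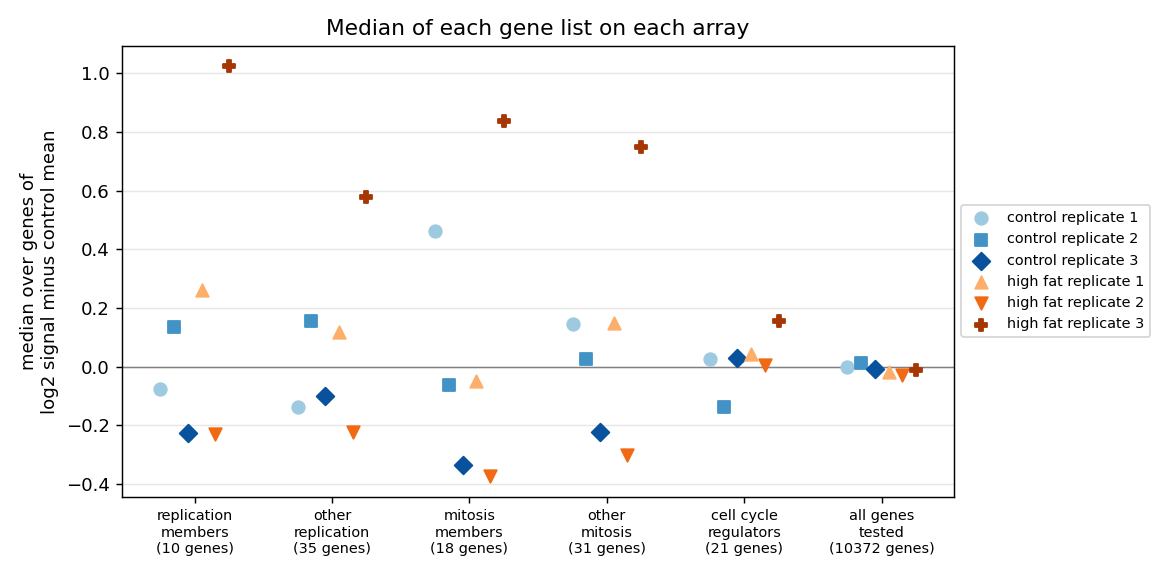
Median over genes of the log2 signal minus the control mean, for each array (symbols as in the legend) and for the replication members, other replication genes, mitosis members, other mitosis genes, cell cycle regulators and all genes tested. High fat replicate 3 lies at 1.02 for replication members and 0.84 for mitosis members, above every other array, while all arrays lie near 0 over all genes tested.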

How the data were processed

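Per the labels' protocols, liver RNA was extracted with TRIzol, labelled with a 3′ IVT kit and hybridised to 1 array per sample. The authors deposited log2 values for 31099 probe sets. Base 2 was taken from the values: with it, the 2% trimmed mean of each array is 500.2. How probes were summarised was not given in the sources used here. Array quartiles lay up to 0.22 apart, over the limit of 0.1, so the 31042 probe sets without controls were quantile-normalized. Of these, 20826 were paired with 1 gene; symbols were updated through a current RefSeq table (20758 matched). A gene took its brightest probe set by mean over all arrays. Probe sets below 5.83, the lowest 40%, were left out of the test. The 2-sided comparison of diets used limma 3.58.1 (R 4.3.3) without a block. Only its fitting step was checked on simulated data. Those were independent normal values per gene, without the normalization, the filter or the choice of probe sets. Depth does not apply; the number of arrays limits the precision. Genes with values on every array were those with an unadjusted p under 0.05 or groups without overlap, the brightest 3 and the extremes of each part, with some added after their values were seen; 4 genes of smallest p stand for each further list. The members, lists and rules were chosen with earlier results of these data known. Alternatives covered normalization, filter, probe set choice, variance model, array weights, replicate block, RNA integrity and arrays left out. No genome was used; promoters came from RefSeq's GRCr8 table. Figures used matplotlib 3.10.9.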

Additional observations from a re-analysis of the deposited data

How the results depend on the processing

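None of the 28 members tested passed an adjusted p under 0.05 in limma in the alternatives run, nor did the 16 further cell cycle genes with 1 array left out (E2f8 had no value in 1 of these fits). Over all genes, 4 passed that threshold, 1 did with no brightness filter or with the lowest 20% left out, none with the replicate block (1102 at an unadjusted p under 0.05) or with the RNA integrity covariate (1100), and 0 to 3 with 1 array left out (none without control replicate 1 or 3, where 1313 and 1144 had an unadjusted p under 0.05). The replication median stayed within 0.15 to 0.65 with 1 array left out and the mitosis median within -0.21 to 0.47. Leaving out high fat replicates 1 and 3 together leaves 1 high fat sample, assumed to vary like the controls. The medians were then -0.23 and -0.37, with 4 replication and 4 mitosis genes above 0. At an unadjusted p under 0.05, 2 mitosis genes lay higher with no filter or with the lowest 20% left out. Of all genes, 10.3% and 11.5% had such a p there, in either direction. With the RNA integrity covariate 0 mitosis genes were lower at that p, where 10.6% of all genes had such a p. With 1 array left out, replication genes higher at that p were 2 to 5, and mitosis genes 1 to 2 higher and 0 to 2 lower. The share of all genes at that p, in either direction, was 10.2% to 13.2% in these fits. Genes above 0 were 6 to 9 and 6 to 14.

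The sign turned for the genes given here. With high fat replicates 1 and 3 left out together, Aurkb was at -0.62, Bub1 -0.76, Cdk1 -0.33, Ect2 -0.39, Kif20a -0.36, Mcm3 -0.37, Mcm4 -0.69, Mcm6 -0.14, Nusap1 -0.0020, Rrm1 -0.40, Stmn1 -0.065 and Top2a -1.11. With the RNA integrity covariate Cdc20 was at -0.0075, Cdk1 at -0.087 and Kif11 at -0.012. Nusap1 was at -0.043 with the mean of its probe sets, and Spc25 at 0.089 with array weights. With 1 array left out, Aurkb ranged from -0.055 to 0.81, Birc5 from -0.49 to 0.011, Bub1 from -0.43 to 0.53, Cdk1 from -0.24 to 0.53, Ect2 from -0.18 to 0.67, Kif11 from -0.066 to 0.52, Mcm4 from -0.32 to 0.59, Nusap1 from -0.097 to 0.36, Prc1 from -0.53 to 0.016, Rrm1 from -0.10 to 0.48, Spc25 from -0.47 to 0.32, Top2a from -0.29 to 0.85 and Tyms from -0.22 to 0.20. Beyond fewer arrays or probe sets, the cause was not tested. The labels number samples 1 to 3 in each diet, but same-numbered samples share only a number: their deviations correlated at -0.13, -0.13 and -0.14. The replicate block left the medians at 0.51 and 0.20.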
